A study of Mus musculus with 2 samples.

Results

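A set of 9 transcription factor genes of the myeloid lineages, of 32285 genes listed in the deposited matrices, was followed from progenitors to mature neutrophils, monocytes, macrophages and dendritic cells: Cebpa, Cebpb, Cebpd, Cebpe, Gfi1, Spi1, Irf8, Runx1 and Klf4. They were taken by symbol, and all 9 had UMIs in both libraries. The cells came from BALB/cAnNCrl mice (female and 7 to 8 weeks old per the methods of the study) that bore liver metastases of 4T1, a mouse mammary carcinoma line, set up by a hemisplenectomy procedure. The groups were the vehicle (hashtag A0301), a low dose of CBL0137 (A0305) and a high dose of CBL0137 (A0310), all in tumor-bearing mice. Per the study, vehicle and CBL0137 were given by hepatic arterial infusion. CBL0137 is a small molecule that changes how DNA binds histones. Leukocytes were taken 5 days after treatment from 2 pooled mice per group, and 1 droplet library was labelled liver and 1 labelled spleen, each holding all 3 groups. Neither dose has a stated amount in the sources used here. A group was therefore 1 pooled sample per library, so that no test was possible and no p-value is given. All 95% intervals are exact for summed UMIs and cover counting error, without the spread between mice or between cells.

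The members act at successive branch points of blood formation. Runx1 is needed for definitive blood stem cells, Spi1 encodes PU.1, which is needed for macrophages and B cells and active in all phagocytes, and Cebpa drives the step from multipotent to granulocyte and monocyte progenitors. Cebpe is required for secondary granule genes in immature neutrophils, Cebpb for emergency granulopoiesis, and Cebpd is an acute phase member of the same basic leucine zipper family. Gfi1 is a zinc finger repressor that favors neutrophils over monocytes, while Irf8 and Klf4 favor monocytes, and Irf8 also dendritic cells.

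The 3 groups rest on short antibody barcodes read with each cell, which are shown because every dose comparison depends on them.
A0301, vehicle: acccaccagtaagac
A0305, low dose: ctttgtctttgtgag
A0310, high dose: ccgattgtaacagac
RefSeq promoter windows (GRCm38.p6) were found for 6 of the 9 members, in 9 windows. For Cebpb, Cebpa and Irf8, a window is shown as the 250 bases before the start on the plus strand, at chr2:167688665-167688914, chr7:35119043-35119292 and chr8:120736108-120736357. These members had high levels in mature neutrophils, in mononuclear phagocytes and in dendritic cells, in that order. Capitals mark matches to the letters TTCNNNGAA, a gamma-activated site to which STAT proteins bind, searched on both strands.
Cebpb: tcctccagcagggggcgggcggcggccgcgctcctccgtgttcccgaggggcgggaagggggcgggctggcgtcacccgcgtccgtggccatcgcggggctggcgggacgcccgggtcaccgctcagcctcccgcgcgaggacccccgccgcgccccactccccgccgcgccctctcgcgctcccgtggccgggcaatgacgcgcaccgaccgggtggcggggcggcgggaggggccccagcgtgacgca
Cebpa: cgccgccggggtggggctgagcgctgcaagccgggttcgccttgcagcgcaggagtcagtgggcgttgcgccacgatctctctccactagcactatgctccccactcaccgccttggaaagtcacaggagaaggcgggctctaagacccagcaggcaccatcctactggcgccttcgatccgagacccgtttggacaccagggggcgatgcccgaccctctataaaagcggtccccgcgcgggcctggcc
Irf8: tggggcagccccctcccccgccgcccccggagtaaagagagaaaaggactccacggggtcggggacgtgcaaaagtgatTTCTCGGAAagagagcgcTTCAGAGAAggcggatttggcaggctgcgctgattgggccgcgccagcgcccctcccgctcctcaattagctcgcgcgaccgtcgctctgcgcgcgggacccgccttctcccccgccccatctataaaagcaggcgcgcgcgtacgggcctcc
The Irf8 window shown held 2 such matches, which begin 171 and 153 bases before the start, and 7.02% of 32851 windows of the same length held at least 1. A second Irf8 window, at chr8:120738389-120738638, held none. No match to TTGCNNAA (C/EBP), GAGGAA (PU.1) or TGTGGT (RUNX) was in the 3 windows shown, whereas 9.56%, 23.3% and 14.0% of all windows held one. Of the windows not shown, 1 of Gfi1 held a C/EBP match and 1 of Runx1 a PU.1 match. The Cebpb window was 81.6% G or C, against 66.4% for Cebpa and 67.2% for Irf8.

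After removal of barcodes with no hashtag call (540 and 1627) or more than 1 hashtag (616 and 215), the liver-labelled library held 8435 cells and the spleen-labelled library 2988. Each group summed to between 17333148 and 26508853 UMIs in the first and between 7130127 and 10589251 UMIs in the second. Tissue transcripts went against the labels: 6 hepatocyte markers summed to 0.0874 UMIs per 1000000 UMIs (CPM) in the liver-labelled library and 74.9 CPM in the spleen-labelled library, and 6 Kupffer cell markers to 15.2 and 637 CPM. The deposited files are named for the opposite tissue, so each library is called by its label only, and no value here is assigned to a tissue. The libraries shared 15 barcodes. Of the barcodes with no call in the spleen-labelled library, 1425 carried mostly the high dose hashtag, so high dose values there rest on the 865 cells that were called.

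Cells were clustered with the 9 members left out of the variable features, and clusters were called X-like from marker genes. The neutrophil path of the liver-labelled library ran through cluster 16 (stem and early progenitor-like, 177 cells), cluster 11 (granulocyte progenitor-like, 248 cells), cluster 7 (immature neutrophil-like, 407 cells, led by Ltf, Camp and Ngp) and the mature neutrophil-like clusters 6, 9, 3 and 2 (439, 302, 809 and 962 cells). Clusters 6 and 9 still carried immature markers, at 10961 and 16366 CPM summed over 6 genes, against 61823 CPM in cluster 7 and 368 and 681 CPM in clusters 3 and 2. The path of the spleen-labelled library ran through cluster 10 (granulocyte progenitor-like, 160 cells), clusters 11 and 6 (immature neutrophil-like, 157 and 180 cells) and the mature neutrophil-like clusters 0, 13, 7 and 2 (265, 123, 179 and 235 cells). The class names do not line up between the libraries. Cebpe, Fcnb and Elane led cluster 11 in both, but it was named granulocyte progenitor-like in the liver-labelled library and immature neutrophil-like in the spleen-labelled library, so clusters are given beside classes. The conventional dendritic cell-like cluster 9 of the spleen-labelled library was named on only 3 raised markers (Naaa, Wdfy4 and H2-DMb2). Flt3, Zbtb46, Xcr1 and Clec9a were not among them.

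**Figure D1:**
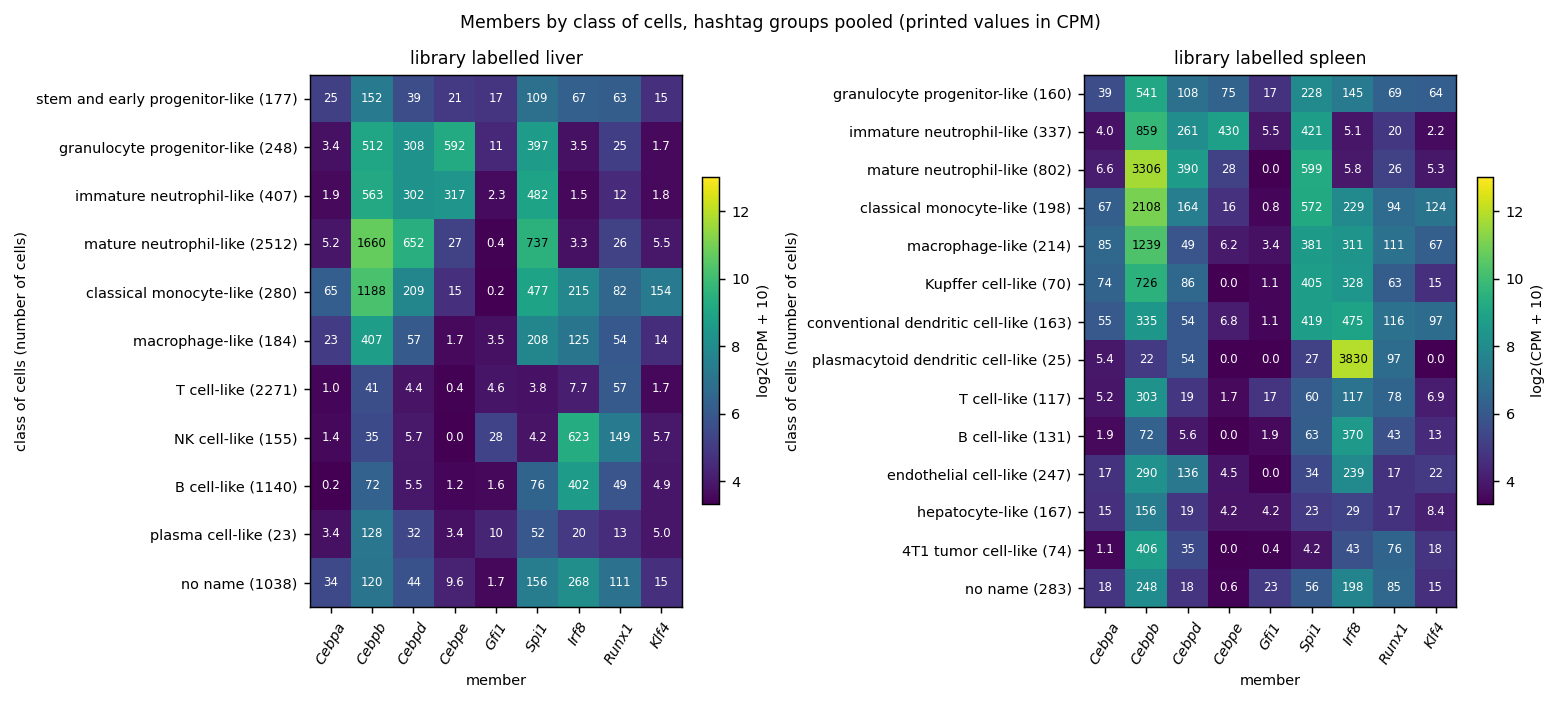
Level of the 9 members (columns) in each class of cells (rows, number of cells in brackets) of the 2 libraries, hashtag groups pooled. Color is log2(CPM + 10), and the printed values are CPM. Irf8 reached 3830 CPM in plasmacytoid dendritic cell-like cells, and Cebpe stood at or below 75.4 CPM outside the granulocyte progenitor-like class of the liver-labelled library and the immature neutrophil-like classes.

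Cebpe (chr14:54710360-54712174 in GRCm38) marked a narrow window of the neutrophil path. Its level was 592 CPM (575 to 608) in cluster 11 of the liver-labelled library and 585 CPM (558 to 612) in cluster 11 of the spleen-labelled library. It was lower in the Ltf and Camp clusters, with 317 CPM in cluster 7 and 211 CPM in cluster 6, and lower still in the mature clusters that kept immature markers, with 39.9, 45.6 and 44.2 CPM in clusters 6 and 9 and in cluster 0. The most mature clusters had 7.14 and 6.93 CPM in the liver-labelled library and 9.18 and 9.61 CPM in the spleen-labelled library. Earlier cells also held little of it, 21.1 CPM in stem and early progenitor-like cells and 75.4 CPM in the Mpo and Ctsg cluster 10. After every cell was thinned to 500 UMIs, 25.4% of the granulocyte progenitor-like cells of the liver-labelled library had a Cebpe UMI (99.6% before thinning, median 32718 UMIs), against 0.916% of mature neutrophil-like cells (9.95% before, median 4526.5) and 0.0440% of T cell-like cells (0.220% before, median 4874), which should lack the gene.

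Cebpb (chr2:167688915-167690418) followed the opposite course. Its level was 152 CPM in stem and early progenitor-like cells, 512 and 563 CPM in clusters 11 and 7, 1334 and 1223 CPM in clusters 6 and 9, and 2147 and 2197 CPM in clusters 3 and 2 of the liver-labelled library. The same order was seen in the spleen-labelled library, from 541 and 616 CPM in clusters 10 and 11 over 1203 CPM in cluster 6 and 2389 CPM in cluster 0 to 5959 CPM in cluster 2. Neighbours among the clusters given differed beyond their counting intervals, except clusters 3 and 2 of the liver-labelled library, whose intervals of 2096 to 2198 and 2150 to 2244 CPM overlapped. The step from cluster 6 to cluster 9 of that library went down, but the markers do not set the order of these clusters. Mature neutrophil markers summed to 2708 and 2712 CPM in them, and immature markers to 10961 and 16366 CPM. Monocyte-like cells held 1188 and 2108 CPM, and T cell-like cells 40.8 and 303 CPM in the 2 libraries.

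Cebpd (chr16:15887286-15891031) and Spi1 (chr2:91082390-91115756) had their highest levels in mature clusters, but Cebpd did not keep the order of the path in the spleen-labelled library. Cebpd had 38.7 CPM in stem and early progenitor-like cells, 308 and 302 CPM in clusters 11 and 7, and 375 to 1044 CPM in the mature clusters of the liver-labelled library. In the spleen-labelled library it had 108 CPM in cluster 10, 290 and 221 CPM in the immature clusters 11 and 6, and 334, 482 and 686 CPM in the mature clusters 0, 7 and 2. The level in cluster 6 was thus below that in cluster 11, and mature cluster 13, of whose 123 cells 118 were low dose cells, had only 190 CPM. Spi1 spanned a smaller range, from 109 CPM in stem and early progenitor-like cells to 911 CPM in cluster 3, and from 228 CPM in cluster 10 to 663 CPM in cluster 2. Outside the myeloid classes, T cell-like cells had 4.42 CPM of Cebpd and 3.82 CPM of Spi1 in the liver-labelled library, while B cell-like cells, which use PU.1, had 76.2 CPM of Spi1.

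**Figure D2:**
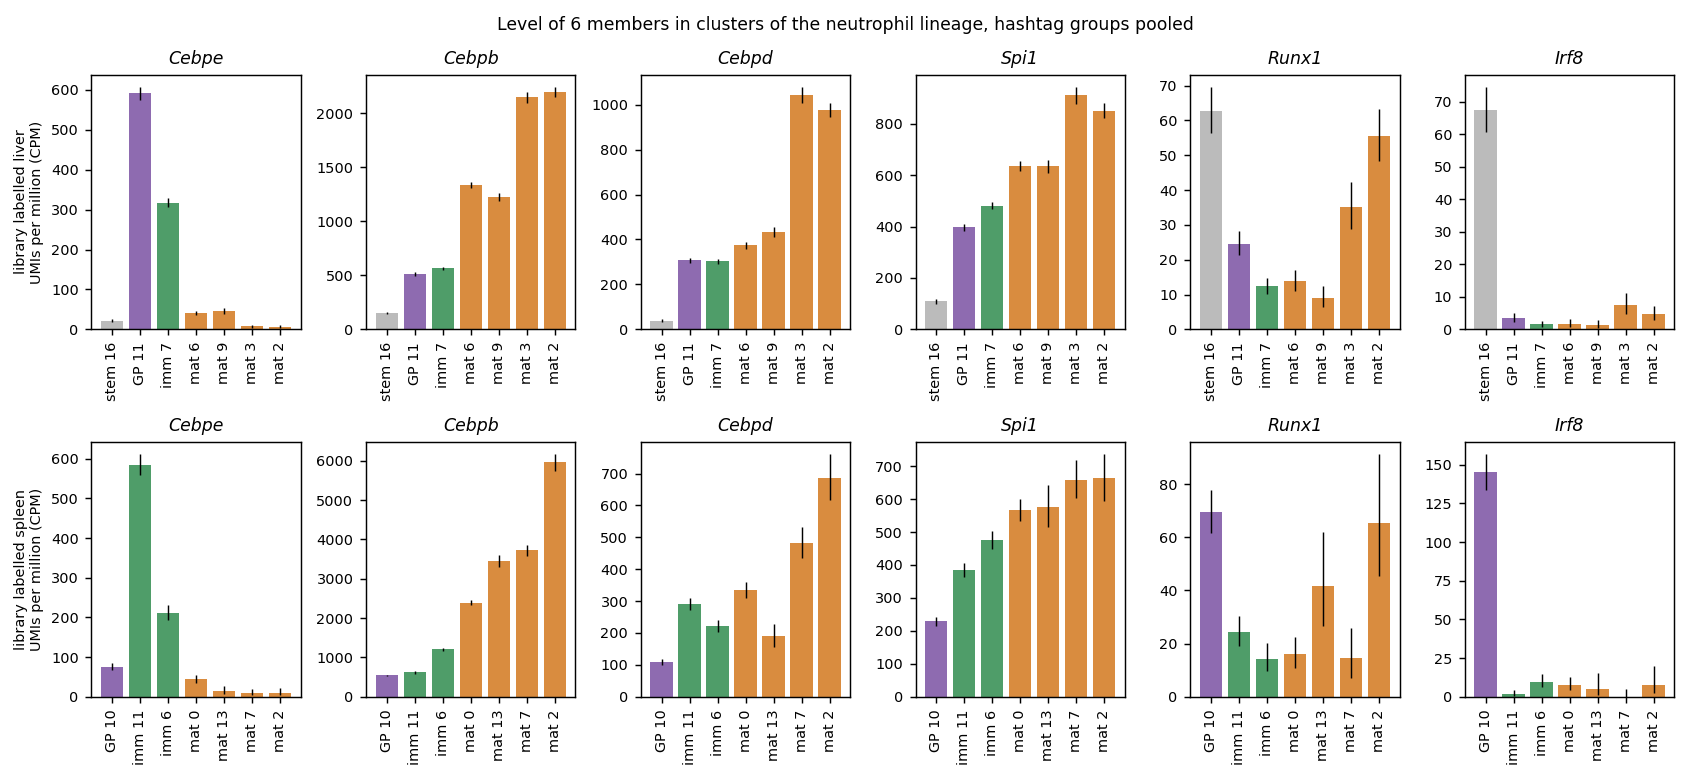
Bars give the CPM of 6 members in each cluster of the neutrophil path (GP, granulocyte progenitor-like; imm, immature and mat, mature neutrophil-like, with cluster numbers), hashtag groups pooled, with exact 95% Poisson intervals; each panel has its own linear axis from 0. Cebpe peaked at 592 and 585 CPM in the clusters numbered 11, while Cebpb, Cebpd and Spi1 were highest in mature clusters.

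Cebpa (chr7:35119293-35121928), the founding member of the family in granulocyte and monocyte progenitors, was low all along the neutrophil path past the early progenitors. Stem and early progenitor-like cells held 25.4 CPM and cluster 10 of the spleen-labelled library 38.6 CPM, but clusters 11 and 7 of the liver-labelled library held 3.38 and 1.89 CPM and the mature clusters 4.35 to 6.42 CPM. Mononuclear phagocytes kept it: monocyte-like cells had 64.8 and 67.1 CPM, macrophage-like cells 22.5 and 84.8 CPM, and Kupffer cell-like cells and conventional dendritic cell-like cells of the spleen-labelled library 74.4 and 55.3 CPM. Its highest value was in cluster 15 of that library, which had no name, at 129 CPM (82.8 to 192, 24 UMIs). Mcpt8, a basophil marker, was found in 14.1% of that cluster's 85 cells, and Runx1 had 285 CPM there.

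Irf8 (chr8:120736358-120756694) spanned a wide range. Plasmacytoid dendritic cell-like cells had 3830 CPM (3553 to 4123) from 25 cells, and all 25 held an Irf8 UMI. NK cell-like cells followed with 623 CPM, then conventional dendritic cell-like cells with 475 CPM (431 to 523) and B cell-like cells with 402 and 370 CPM. Kupffer cell-like and macrophage-like cells of the spleen-labelled library had 328 and 311 CPM, whose intervals overlapped, and monocyte-like cells 215 and 229 CPM. On the neutrophil path of the liver-labelled library it was found before but not after the granule stage. Stem and early progenitor-like cells had 67.4 CPM, against 1.29 to 7.45 CPM in clusters 11, 7, 6, 9, 3 and 2. T cell-like cells of that library, taken as the background, had 7.73 CPM. In the spleen-labelled library cluster 10 had 145 CPM. Its vehicle cells had 124 CPM, against 7.46 CPM in immature and 10.0 CPM in mature neutrophil-like vehicle cells. T cell-like vehicle cells of the spleen-labelled library had 109 CPM, close to cluster 10, but from only 6 UMIs over 19 cells.

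Klf4 (chr4:55527143-55532466), a zinc finger factor of monocytes, stood at 154 CPM (144 to 165) and 124 CPM (110 to 139) in the monocyte-like cells of the 2 libraries. Conventional dendritic cell-like cells had 97.1 CPM, macrophage-like cells 13.9 and 66.9 CPM, and cluster 10 of the spleen-labelled library 63.8 CPM. No cluster of the neutrophil path past cluster 10 had more than 15.4 CPM. Stem and early progenitor-like cells had 14.9 CPM, and T cell-like cells 1.70 and 6.90 CPM.

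Runx1 (chr16:92601466-92826149) was found in every class, with 149 CPM in NK cell-like, 116 CPM in conventional dendritic cell-like and 57.4 and 77.6 CPM in T cell-like cells. Along the neutrophil path of the liver-labelled library it went from 62.7 CPM in stem and early progenitor-like cells to 12.3 CPM in cluster 7 and 9.02 CPM in cluster 9, and was 55.5 CPM (48.3 to 63.4) in cluster 2. The same dip was present in the spleen-labelled library, from 69.4 CPM in cluster 10 over 14.2 CPM in cluster 6 to 65.4 CPM (45.3 to 91.3) in cluster 2.

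Gfi1 (chr5:107716657-107726036) gave few UMIs, 314 and 172 over all assigned cells. Among myeloid cells it was highest in stem and early progenitor-like cells (17.1 CPM, 94 UMIs) and in the 2 granulocyte progenitor-like clusters (11.1 and 16.8 CPM). Cluster 11 of the spleen-labelled library had 8.78 CPM and cluster 7 of the liver-labelled library 2.29 CPM. In mature neutrophil-like cells 6 UMIs gave 0.353 CPM in the liver-labelled library, and 0 of 802 cells had a UMI in the spleen-labelled library, which allows a share of up to 0.374% of cells with a UMI. NK cell-like cells had 28.3 CPM, more than any myeloid class.

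The comparison of immature with mature neutrophil-like vehicle cells asks which members differ between stages. In the liver-labelled library 190 immature and 1239 mature cells gave Cebpe 311 and 26.4 CPM, a log2 ratio of 3.56 (3.34 to 3.78). The 114 and 248 cells of the spleen-labelled library gave 468 and 36.5 CPM, a log2 ratio of 3.68 (3.22 to 4.18). Cebpb was lower in the immature cells, at 571 against 1863 CPM (-1.71, -1.77 to -1.65) and 884 against 3835 CPM (-2.12, -2.20 to -2.03). Cebpd had log2 ratios of -1.18 (-1.27 to -1.10) and -0.48 (-0.68 to -0.29), and Spi1 -0.57 (-0.64 to -0.50) and -0.41 (-0.56 to -0.25). No interval of these 4 members reached 0. The Spi1 ratio of the liver-labelled library was, however, the same as the median over all genes there (-0.57). That median was -0.14 in the spleen-labelled library.

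At a limit of 2-fold, 8 of 9 members differed between the stages in the liver-labelled library and 5 of 9 in the spleen-labelled library. In the liver-labelled library Gfi1 rested on 9 immature and 4 mature UMIs, and its interval held 0 (-0.08 to 3.91). Irf8 rested on 8 and 29 UMIs there. Its levels, 1.67 and 4.03 CPM, were both below that of the T cell-like cells taken as the background. Among members with at least 20 UMIs over both sides, 1 of 8 was higher (Cebpe) and 6 of 8 were lower in immature cells in the liver-labelled library, where 7.45% of 8778 genes with as many UMIs were higher and 32.8% lower, with a median of -0.57 over all genes and -1.41 over the members. In the spleen-labelled library 1 of 6 was higher (Cebpe) and 1 of 6 lower (Cebpb), beside 21.2% and 23.5% of 6241 genes, with a median of -0.14 over all genes and -0.42 over the members. The 20 most abundant genes took 55.4% of UMIs in immature and 45.1% in mature cells of the liver-labelled library. Leaving them out of the totals would add 0.30 to every log2 ratio there. Cebpd (-1.18) and Irf8 (-1.27) would then no longer be past 2-fold. Counting cluster 11 of the spleen-labelled library with the granulocyte progenitors, an alternative chosen after seeing the data, left 4 members past 2-fold, and the Cebpe ratio was then 2.64.

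Of 20 other transcription factors of blood formation, Myb, which maintains progenitors, was more than 2-fold higher in the immature cells of both libraries (log2 ratios 3.40 and 3.08). Zeb2, Klf2, Klf6, Egr1, Nr4a1 and Runx2 were lower in both, with Egr1, an immediate early gene, at -2.93 and -3.08. In all, 1 and 9 of the 14 factors with at least 20 UMIs were past 2-fold higher and lower in the liver-labelled library, and 2 and 6 of 12 in the spleen-labelled library. Over all genes the shares higher and lower were 7.45% and 32.8% in the first and 21.2% and 23.5% in the second. Of 8 genes known as targets of the members, Cybb (a subunit of the phagocyte oxidase, 2.58 and 1.63), Lyz2 (lysozyme, 2.37 and 1.81) and Lcn2 (lipocalin, 1.62 and 1.19) were higher in the immature cells of both libraries. Il6ra (-2.06 and -2.56) and Nos2 (-3.10 and -3.61) were lower in both.

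Whether CBL0137 changed the members within a class was asked first in mature neutrophil-like cells. In the liver-labelled library, 1239 vehicle, 1128 low dose and 145 high dose cells gave Cebpb levels of 1863, 1594 and 1258 CPM. Cebpd had 676, 741 and 309 CPM, Spi1 717, 782 and 659 CPM, and Cebpe 26.4, 28.7 and 26.5 CPM in the same order. Against the vehicle, the high dose log2 ratios were -0.57 (-0.62 to -0.51) for Cebpb, -1.13 (-1.24 to -1.02) for Cebpd and 0.01 (-0.43 to 0.42) for Cebpe. For Spi1 it was -0.12 (-0.20 to -0.04), which turned to 0.12 without the 20 most abundant genes in the totals. Runx1 had 32.7 CPM after the vehicle and 14.1 CPM after the high dose (-1.21, -1.78 to -0.69), and Klf4 41 and 1 UMIs.

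The spleen-labelled library, with 248, 472 and 82 cells, gave Cebpb 3835, 3631 and 1929 CPM, a high dose log2 ratio of -0.99 (-1.07 to -0.91). Cebpd had 361, 480 and 235 CPM (-0.62, -0.87 to -0.37), Spi1 523, 664 and 556 CPM (0.09, -0.09 to 0.27) and Cebpe 36.5, 22.7 and 28.0 CPM (-0.38, -1.18 to 0.38). Cebpb and Cebpd were thus lowest after the high dose in both libraries. The median high dose ratio over all genes was -0.58 in the liver-labelled library, so Cebpb was not below the typical gene there. In the spleen-labelled library that median was -0.19.

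Past 2-fold at the high dose were 4 of 9 members in the liver-labelled library and 0 of 9 in the spleen-labelled library. With at least 20 UMIs, 4 of 8 were lower (Cebpd, Irf8, Runx1 and Klf4) and 0 higher in the liver-labelled library, where 29.3% of 8296 genes were lower and 1.52% higher, with medians of -0.58 over all genes and -0.92 over the members. Leaving the 20 most abundant genes out of the totals adds 0.24 to every log2 ratio there, after which Cebpd (-0.88) and Runx1 (-0.97) were no longer past 2-fold, while Irf8 and Klf4 were. Irf8 rested on 4 high dose and 29 vehicle UMIs, and the interval of its reported ratio held 0 (-1.28, -3.25 to 0.23). Its levels, 1.66 and 4.03 CPM, were both below that of the T cell-like cells taken as the background. None of 5 members (0 of 5) was past 2-fold in the spleen-labelled library, beside 11.3% lower and 4.02% higher of 4971 genes. Median depth was 3744 UMIs in vehicle and 16628 UMIs in high dose cells of the liver-labelled library, and 3010.5 and 10086 UMIs in the spleen-labelled library.

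The mature class was made up differently in the groups. Clusters 2 and 3 held 52.4% and 28.4% of its vehicle cells but 6.21% and 2.07% of its high dose cells in the liver-labelled library, where cluster 6 held 76.6% of the latter. In the spleen-labelled library cluster 0 held 34.3% of vehicle and 81.7% of high dose cells. Clusters 6 and 0 are among those that kept immature markers, and in the vehicle group they had less Cebpb and Cebpd than clusters 3 and 2 and clusters 7 and 2 of their libraries.

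Within single clusters, a comparison added after seeing the data, the high dose differences in Cebpd were smaller, and that in Runx1 was not seen. In cluster 6 of the liver-labelled library, with 152 vehicle and 111 high dose cells, Cebpd had 363 and 300 CPM (-0.27, -0.43 to -0.11) and Cebpb 1405 and 1267 CPM (-0.15, -0.23 to -0.07). In cluster 9, with 86 and 22 cells, the log2 ratios were -0.44 (-0.75 to -0.13) for Cebpd and -0.28 (-0.43 to -0.13) for Cebpb. Runx1 had 12.4 and 14.9 CPM in cluster 6 (0.26, -0.56 to 1.10), and 8 and 2 UMIs in cluster 9 (-0.29, -3.56 to 2.04). Klf4 had 1 UMI and Irf8 2 UMIs in each group of cluster 6, too few to show a difference. Cluster 0 of the spleen-labelled library, with 85 and 67 cells, had 268 and 257 CPM of Cebpd (-0.06, -0.37 to 0.26), while Cebpb stayed lower after the high dose, at 2951 and 1793 CPM (-0.72, -0.82 to -0.62).

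Cebpe, whose class level differed little, was lower after the high dose inside these clusters. In cluster 6 of the liver-labelled library it had 49.2 CPM after the vehicle, 42.1 CPM after the low dose and 27.8 CPM after the high dose (high dose log2 ratio -0.82, -1.33 to -0.33). In cluster 9 of the same library the levels were 50.3, 46.3 and 26.2 CPM (-0.94, -2.07 to 0.03, from 10 UMIs at the high dose). Cluster 0 of the spleen-labelled library had 59.5, 46.1 and 30.1 CPM (-0.98, -1.82 to -0.18). Spi1 was slightly higher at both doses in clusters 6 and 0, with high dose log2 ratios of 0.13 (0.01 to 0.24) and 0.22 (0.00 to 0.44).

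**Figure D3:**
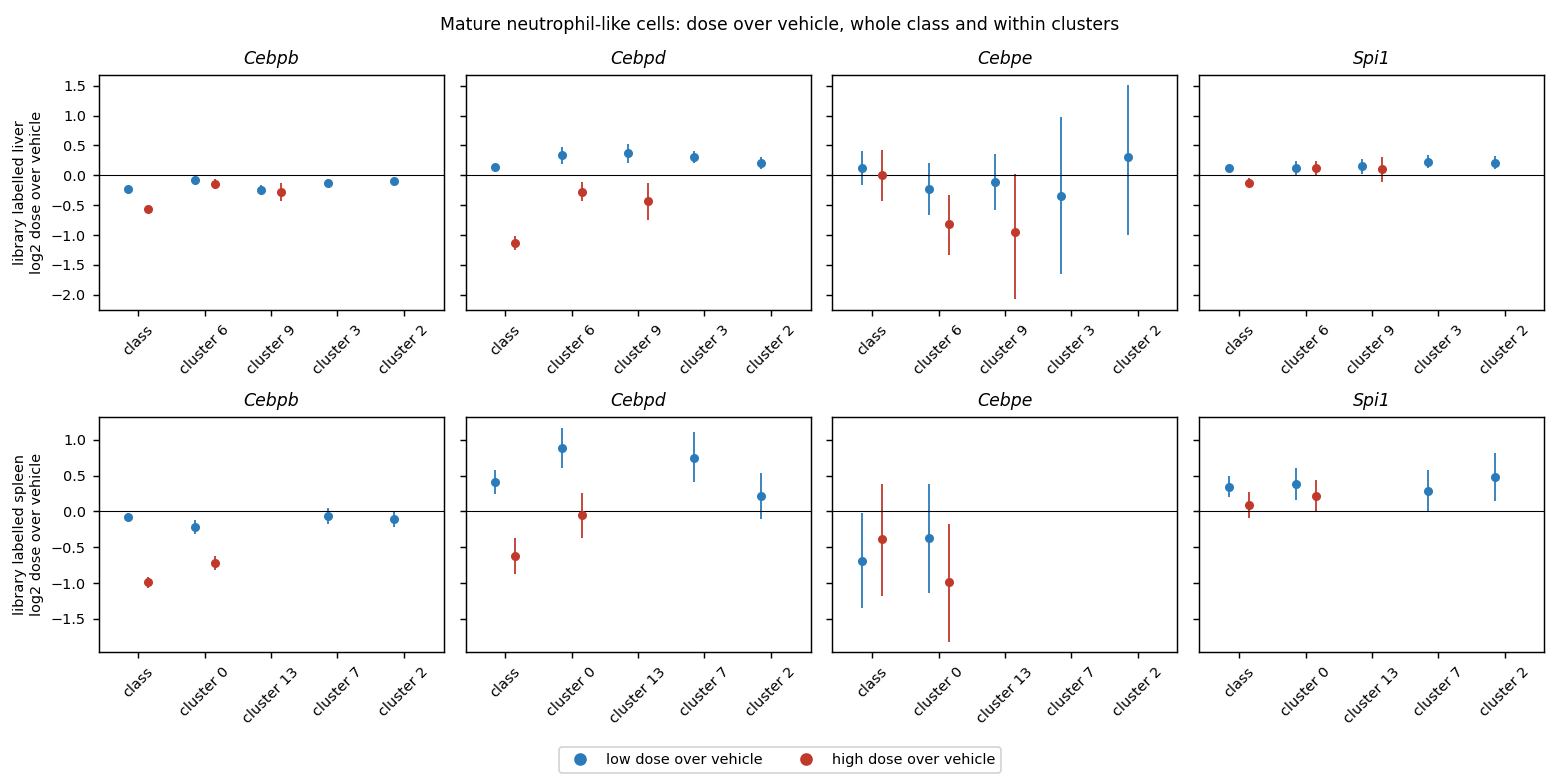
Points give log2 ratios of dose over vehicle (blue, low dose; red, high dose) with exact 95% intervals for 4 members in the whole mature neutrophil-like class and in its single clusters with at least 20 cells in both groups and at least 20 UMIs. The high dose ratio of Cebpd was -1.13 in the class and -0.27 in cluster 6 of the liver-labelled library, and the low dose points of Cebpd lay above 0 in every cluster shown.

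At the low dose the levels of Cebpd and Spi1 lay above the vehicle in the mature clusters that could be compared. Cluster 13 of the spleen-labelled library, with 118 low dose but only 2 vehicle cells, could not be. Its Cebpd level, given above, was the lowest of the mature clusters of that library. The log2 ratios of Cebpd were 0.33 (0.19 to 0.47), 0.37 (0.21 to 0.53), 0.31 (0.21 to 0.41) and 0.20 (0.10 to 0.30) in clusters 6, 9, 3 and 2 of the liver-labelled library. They were 0.88 (0.60 to 1.17) and 0.75 (0.41 to 1.11) in clusters 0 and 7 of the spleen-labelled library, but 0.21 (-0.10 to 0.53) in cluster 2. Spi1 ratios ranged from 0.12 to 0.48 in the same 7 clusters, and none of their intervals reached 0. Cebpb ratios were small and below 0 in all 7, from -0.25 to -0.06, with an interval that reached 0.05 in cluster 7 of the spleen-labelled library.

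At 2-fold, 1 of 9 members (Gfi1, 2 and 4 UMIs) and 2 of 9 members (Irf8, 3 and 11 UMIs, and Klf4, 19 and 1 UMIs) were past the limit at the low dose in mature cells of the libraries labelled liver and spleen. With at least 20 UMIs these were 0 of 8 in the liver-labelled library, beside 0.763% of 9040 genes higher and 4.13% lower, and 1 of 6 (Klf4, higher) in the spleen-labelled library, beside 3.18% higher and 2.96% lower of 5942 genes. Of the other transcription factors, Klf2, Egr1 and Nr4a1 were more than 2-fold lower at the high dose in mature cells of both libraries (Klf2 -1.39 and -1.32, Egr1 -3.02 and -2.18, Nr4a1 -2.54 and -2.53). These ratios are over the whole class, whose clusters had different shares in the groups, and no ratio within single clusters is given for them. The same genes were also lower in immature than in mature vehicle cells. Whether they differed within a cluster was not tested. Of those with at least 20 UMIs, 7 of 12 were lower in the liver-labelled library and 3 of 10 in the spleen-labelled library, and 0 and 1 were higher. Over all genes, 29.3% and 11.3% were lower and 1.52% and 4.02% higher at the high dose in the 2 libraries. Beside the same shares, 1 of 7 target genes was higher (Cybb) and 1 lower (Csf1r) in the liver-labelled library. In the spleen-labelled library 1 of 8 was higher (Arg1). At the low dose no gene of either list was past 2-fold in the same direction in both libraries.

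Immature neutrophil-like cells differed less between the doses. In cluster 7 of the liver-labelled library, with 190, 163 and 54 cells, Cebpe had 311, 350 and 258 CPM after the vehicle, the low and the high dose, and Spi1 484, 461 and 524 CPM. Cebpb had 571, 510 and 660 CPM there, a high dose log2 ratio of 0.21 (0.10 to 0.31), and Cebpd 298, 314 and 288 CPM. Under other processing settings that Cebpb ratio ranged from -0.21 to 0.25, so its sign was not stable. The earlier cluster 11 of the same library, with 108, 98 and 42 cells, had 617, 591 and 540 CPM of Cebpe, and cluster 11 of the spleen-labelled library 599, 565 and 586 CPM. In clusters 7 and 11 of the liver-labelled library the high dose ratios of Cebpe were -0.27 (-0.43 to -0.11) and -0.19 (-0.30 to -0.08). In cluster 11 of the spleen-labelled library it was -0.03 (-0.19 to 0.13), so the difference was not seen there.

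At the high dose 1 of 9 members was past 2-fold in the immature cells of each library (Cebpa, lower from 1 and 10 UMIs in the liver-labelled and higher from 10 and 6 UMIs in the spleen-labelled library), and 1 of 9 in each at the low dose, all on 20 UMIs or fewer. With at least 20 UMIs no member was past 2-fold at the high dose (0 of 5 and 0 of 7), where 1.88% of genes were higher and 4.4% lower in the liver-labelled library and 3.67% and 1.62% in the spleen-labelled library. At the low dose 0 of 6 members were past 2-fold beside 1.32% of genes higher and 1.9% lower, and 1 of 7 (Irf8, 6 and 14 UMIs, lower) beside 1.81% higher and 3.49% lower. Of the lists, Csf1r, the receptor of macrophage colony-stimulating factor, was lower at the high dose in immature cells of both libraries (-1.81 from 2 and 21 UMIs, and -1.24 from 8 and 24 UMIs).

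Monocyte-like cells were fewer at the high dose, 26 in cluster 10 of the liver-labelled library and 40 in cluster 5 of the spleen-labelled library, fewer than the 50 first set for a class, and were compared after seeing the data. Klf4 had 160 and 171 CPM after the vehicle and the low dose and 70.3 CPM after the high dose in cluster 10, and 112, 184 and 44.0 CPM in cluster 5. The high dose log2 ratios were -1.19 (-1.67 to -0.74) and -1.34 (-2.03 to -0.70). Runx1 went the other way, with 72.4, 71.6 and 160 CPM in cluster 10 and 65.0, 93.9 and 135 CPM in cluster 5, and high dose ratios of 1.14 (0.79 to 1.49) and 1.06 (0.54 to 1.59). High dose and vehicle intervals did not overlap for either gene in either library. Clustered more coarsely (resolution 0.4), the spleen-labelled library gave a Runx1 ratio of 0.37 and a Klf4 ratio of -1.11.

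Cebpd was also lower at the high dose in the monocyte-like cells of both libraries, at 209, 222 and 168 CPM in cluster 10 (-0.32, -0.63 to -0.02) and 174, 182 and 124 CPM in cluster 5 (-0.50, -0.92 to -0.08). Cebpa was lower at the high dose in cluster 5, at 103, 61.2 and 27.1 CPM (-1.93, -2.80 to -1.15, or -0.50 at resolution 0.4), and in cluster 10 at 73.4, 54.4 and 51.1 CPM (-0.52, -1.10 to 0.02). Irf8 had 227, 208 and 166 CPM in cluster 10 and 232, 198 and 274 CPM in cluster 5. Cebpb and Spi1 stayed within 0.42 of the vehicle on the log2 scale at both doses. Of the 8 members with at least 20 UMIs, 1 was past 2-fold higher (Runx1) in each library, beside 4% and 4.3% of all genes, and 1 and 2 were lower (Klf4 in both, Cebpa in cluster 5), beside 7.2% and 2.97%.

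**Figure D4:**
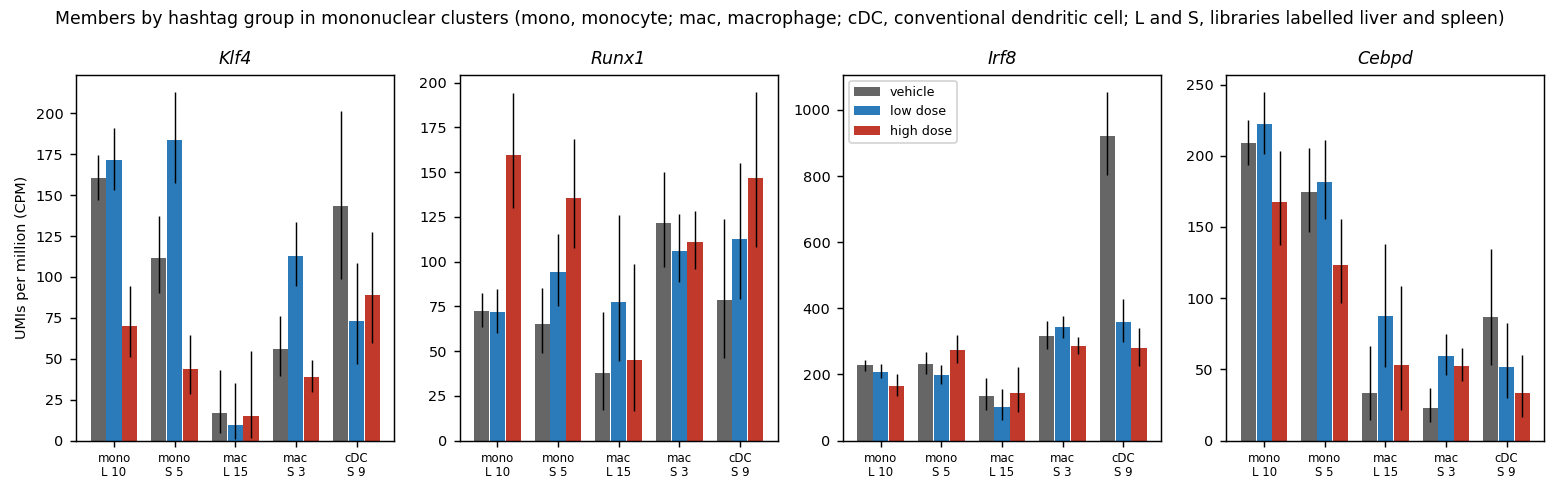
Bars give the CPM of Klf4, Runx1, Irf8 and Cebpd by hashtag group (grey, vehicle; blue, low dose; red, high dose) in the monocyte-like, macrophage-like and conventional dendritic cell-like clusters, with exact 95% Poisson intervals. In monocyte-like cells of both libraries the high dose bar of Klf4 was the lowest (70.3 and 44.0 CPM) and that of Runx1 the highest (160 and 135 CPM).

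Conventional dendritic cell-like cells (cluster 9 of the spleen-labelled library, 61, 68 and 34 cells) were named on only 3 raised markers. They had 922, 359 and 279 CPM of Irf8 after the vehicle, the low and the high dose. The log2 ratios were -1.36 (-1.70 to -1.03) and -1.73 (-2.10 to -1.37), and the vehicle interval of 802 to 1054 CPM did not overlap those of the doses. The share of cells with an Irf8 UMI went the other way, at 31.1%, 38.2% and 52.9%, while median depth was 994, 2066 and 8950 UMIs. After thinning to 500 UMIs the shares were 13.1%, 13.2% and 14.7%. The vehicle level thus came from 212 UMIs in 19 of 61 cells, and with every cell weighted equally the high dose ratio was -0.57. Spi1 had 400, 371 and 480 CPM in the same cells. With at least 20 UMIs, 2 of 7 members were past 2-fold lower at the high dose (Irf8 and Cebpd) and 0 higher, beside 4.9% and 9.95% of 3758 genes. Plasmacytoid dendritic cell-like cells, only 5, 8 and 12 in number, had 3574, 3398 and 4169 CPM of Irf8.

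In macrophage-like cells of the spleen-labelled library (cluster 3, 49, 82 and 83 cells), Cebpd had 22.8, 59.4 and 52.6 CPM, with log2 ratios of 1.38 (0.58 to 2.26) at the low and 1.20 (0.42 to 2.07) at the high dose, from 16 vehicle UMIs. Klf4 had 55.7, 113 and 38.8 CPM there, so that the doses lay on either side of the vehicle. The macrophage-like cluster 15 of the liver-labelled library was shallow, with a median of 1479 UMIs per cell, and its 33 Cebpd UMIs gave 33.5, 87.3 and 52.8 CPM. Cebpb had 549, 296 and 324 CPM there. Its log2 ratios were -0.89 (-1.36 to -0.44) at the low and -0.76 (-1.29 to -0.25) at the high dose.

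Stem and early progenitor-like cells of the liver-labelled library (cluster 16, 42, 43 and 92 cells) had lower levels of most members at the high dose. The cluster also carried granulocyte progenitor markers, at 5360 CPM in sum against 11309 CPM in cluster 11. Whether its makeup differed between the groups was not tested. Klf4 had 39.7, 13.4 and 2.91 CPM after the vehicle, the low and the high dose (56, 18 and 8 UMIs in 7, 5 and 4 cells), with log2 ratios of -1.57 (-2.42 to -0.78) and -3.77 (-5.05 to -2.69). Cebpb had 253, 168 and 93.5 CPM, with ratios of -0.59 (-0.84 to -0.34) and -1.43 (-1.67 to -1.20), but the share of cells with a Cebpb UMI was alike at 59.5%, 51.2% and 55.4%. Groups set by the dominant hashtag gave -0.95 for Cebpb at the high dose. Cebpd had 58.9, 36.4 and 29.5 CPM. Cebpa had 32.6, 40.1 and 14.6 CPM, lower at the high dose only (-1.17, -1.81 to -0.52). Of 9 members with at least 20 UMIs, 3 were past 2-fold lower (Cebpa, Cebpb and Klf4) and 0 higher, beside 2.16% and 5.87% of 9410 genes, and the median was -0.80 over the members and 0.02 over all genes.

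Between vehicle cells of the same class, Cebpb was lower in the liver-labelled library than in the spleen-labelled library in mature neutrophil-like cells (1863 against 3835 CPM, log2 ratio -1.04, -1.09 to -0.99) and in monocyte-like cells (1107 against 2035 CPM, -0.88, -0.96 to -0.79). Cebpd was higher in the mature neutrophil-like cells of the liver-labelled library (676 against 361 CPM, 0.91, 0.76 to 1.06), and Spi1 also (717 against 523 CPM, 0.45, 0.33 to 0.58). Monocyte-like cells had like levels of Irf8 (227 and 232 CPM) and Runx1 (72.4 and 65.0 CPM), with differences of -0.03 (-0.26 to 0.21) and 0.16 (-0.28 to 0.61). Library, tissue and cell recovery cannot be told apart here, and a class holds clusters in different shares in the 2 libraries.

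Over 38 clusters of both libraries, the genes most like each member were described by Pearson's r of log2(CPM + 10) among 10885 genes, without a test, since clusters of a library share its depth and free RNA. Cebpe was followed most closely by Cldn15 (r = 0.95), Ugt8a and Prom1, Cebpb by Gda (0.95), Slc16a3 and Cd14, and Cebpd by Mtus1 (0.96), Ifitm2 and Lrg1. Genes close to Spi1 included Ogfrl1 and Nfam1. Irf8 was nearest to Ccdc50 (0.92), Lrrk1 and Calhm2, Cebpa to Ccl9 (0.94), Tifab and Pid1, and Klf4 to Tifab (0.88), Rassf4 and Ptpro. Gfi1 was nearest to Nkg7 (0.89), Cst7 and Ptpn7, and Runx1 to Slc4a7 (0.84), Polb and Stx16. Among the members, Cebpb, Cebpd and Spi1 were alike (r from 0.83 to 0.88), as were Cebpa and Klf4 (0.79), while Cebpe and Irf8 had an r of -0.47.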

How the data were processed

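UMI counts per gene and barcode were used as the authors deposited them, 1 matrix per library, made with Cell Ranger (5.0.0 in the matrix header, 6.0.0 in the submitters' processing notes) against mm10 (also per the processing notes). The authors' hashtag counts in the same matrices were demultiplexed with HTODemux at a quantile of 0.99 in Seurat 5.3.0 (R 4.3.3), and barcodes with no call or more than 1 hashtag were left out of the comparisons. The methods of the study describe CD11b+ bead isolation, whereas the labels describe leukocytes, and T and B cell-like cells were present. Cells were clustered per library with sctransform 0.4.2, 30 principal components and a resolution of 0.8, after the members were removed from the variable features (2992 and 2993 were used). A cluster was called X-like where at least 3 markers of 1 list were raised by at least 1 on the scale of log2(CPM + 10) and found in at least 20% of its cells. The list with the largest share of raised markers gave the name. No name was given where another list had more markers among the cluster's 10 leading genes. The same held for shallow clusters with no marker of the list among those genes. Some clusters with raised T or B cell markers therefore had no name. The members, marker lists and other gene lists were chosen with earlier results of these data known.

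UMIs were summed per group and class or cluster with Python 3.11.15, pandas 2.3.3 and scipy 1.17.1, and given per 1000000 UMIs of those cells (CPM). Levels have exact Poisson intervals and ratios exact conditional binomial intervals at 95%. Past the fold means at least 2-fold. Backgrounds and list counts took genes with at least 20 UMIs over both sides, and a class was compared where both groups held at least 50 cells. Single clusters with at least 20 cells per group were added after seeing the data. With 1 pooled sample per group in each library, read depth limits the counting error only. A count of 0 was read against a limit of 3 counts, and such a gene was counted as past the fold only where that limit was. For shares of cells with a UMI, each cell was thinned to 500 UMIs. Named genes were the 9 members, the listed genes past 2-fold in the same direction in both libraries, and the 3 genes most like each member. One gene that this rule names is not reported here. The ratio intervals were tried only on counts simulated under the counting model that they assume. That trial leaves out UMIs clumped in few cells, so it cannot show how the intervals hold for such genes. Positions are from GENCODE vM21 (GRCm38), and promoter windows from RefSeq (GRCm38.p6). Scrublet (scanpy 1.11.5) marked 248 and 1 barcodes, and doublets were removed by hashtag only. Alternatives were MULTIseqDemux, the dominant hashtag, a filter on cells (at least 200 genes, at most 10% mitochondrial UMIs), resolutions of 0.4 and 1.6, classes from each cell's own markers, members kept among the variable features, the mean over cells, totals without the 20 most abundant genes, removal of Scrublet doublets, a 1.5-fold limit and a minimum of 20 UMIs.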

Additional observations from a re-analysis of the deposited data

Results flagged for a closer look

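Barcodes with no hashtag call, which enter no comparison, still held member UMIs. In the liver-labelled library the 9 members summed to 395 CPM (371 to 421) from 992 UMIs in 540 such barcodes, against 1610 CPM in assigned cells. In the spleen-labelled library they summed to 814 CPM (789 to 841) from 3802 UMIs in 1627 barcodes, against 2008 CPM in assigned cells.

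Cebpe in immature neutrophil-like cells went in opposite directions at the low dose in the 2 libraries. The log2 ratio over the vehicle was 0.17 (0.06 to 0.28) in the liver-labelled library and -0.38 (-0.52 to -0.24) in the spleen-labelled library. The difference was not tested. The immature class of the spleen-labelled library held cluster 11 at 54.4% of vehicle and 34.9% of low dose cells, and within clusters 11 and 6 the low dose ratios were -0.08 (-0.25 to 0.08) and -0.33 (-0.65 to -0.02).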

How the results depend on the processing

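No paired analysis was possible because each group was 1 pooled sample per library and no result comes from a test, and for the same reason no sample could be left out. Over the alternatives, 1624 of the members' log2 ratios moved by less than their counting interval, 151 moved by more and 7 were counted as reversed. All 7 were past 2-fold in the reported setting. Smaller ratios also changed sign without being counted. In the liver-labelled library the high dose ratio ranged from -0.25 to 0.12 for Spi1 in mature cells and from -0.21 to 0.25 for Cebpb in immature cells. Of the counts of members, 114 stayed within 1.5 times the reported value and 42 did not. In the liver-labelled library, the low dose count in mature cells (1) was 0 with the dominant hashtag, the filter on cells, totals without the 20 most abundant genes, without Scrublet doublets and with at least 20 UMIs, and 2 with classes from each cell's own markers. The high dose count in mature cells (4) was 2 without the 20 most abundant genes. In immature cells the high dose count (1) was 0 with MULTIseqDemux, the filter on cells and at least 20 UMIs, and 2 with the dominant hashtag, own markers and at 1.5-fold. The low dose count (1) was 0 at resolution 0.4 and with at least 20 UMIs, and 2 at 1.5-fold. At resolution 0.4 only 4 of 9 members had their highest level in the same class. In the spleen-labelled library, the high dose count in mature cells (0) was 1 with MULTIseqDemux, 3 with the dominant hashtag, 1 with classes from own markers, 2 with the members kept, 1 as a mean over cells, 2 at 1.5-fold and 1 without cluster 13. Its low dose count (2) was 1 with the dominant hashtag, own markers, the mean over cells and at least 20 UMIs. The high dose count in immature cells (1) was 3 with MULTIseqDemux and the filter on cells, 2 with own markers and with cluster 11 counted as progenitors, and 0 with the dominant hashtag, resolutions of 0.4 and 1.6, without the 20 most abundant genes and with at least 20 UMIs. The low dose count (1) was 0 with the dominant hashtag and own markers and 2 as a mean over cells and at 1.5-fold. The count between stages (5) was 2 with at least 20 UMIs. The settings that leave out cluster 13 or move cluster 11 were chosen after seeing the data.

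The 7 ratios counted as reversed rested on few UMIs. Gfi1 at the low dose in mature cells of the liver-labelled library was 0.086 with the filter on cells, and Klf4 at the low dose in immature cells there -0.73 with own markers. For the spleen-labelled library, Irf8 at the low dose in immature cells was 2.16 with MULTIseqDemux, 0.72 with own markers and 0.10 as a mean over cells, and Klf4 between stages was -1.91 with the dominant hashtag and -0.82 with the filter on cells. The cause was not tested. Depth limits Gfi1, Klf4, Irf8 and Cebpa most, which gave at most 52 UMIs per group in the immature and mature neutrophil-like classes compared.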

Other observations

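Cluster 13 of the liver-labelled library (224 cells) had no name, since it carried genes of several cell types: Wdfy4 and H2-DMb2, used by conventional dendritic cells, in 31.7% and 33.0% of cells, and Mcpt8, a basophil marker, in 9.38%. Its Irf8 level was 544 CPM (485 to 608) after the vehicle and 579 CPM (507 to 658) after the low dose, but 30.7 CPM (13.2 to 60.5) after the high dose, from 312, 235 and 8 UMIs. An Irf8 UMI was found in 27 of 92, 12 of 55 and 7 of 77 cells, and in 17.4%, 14.5% and 1.30% of cells after thinning to 500 UMIs. Cebpa had 75.0, 96.1 and 76.7 CPM in the same cells. Whether the makeup of this cluster differed between the groups was not tested.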
